A study of Homo sapiens with 45 samples.

Results

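Azacytidine was compared with halofuginone in HAP1 cells that lack GCN2, 3 libraries against 3 out of 45 in the series. HAP1 is an adherent, near-haploid human line derived from the leukaemia line KBM-7. The 6 libraries were chosen by their labels alone: GCN2 KO cells given 5 uM azacytidine (azaC) for 4 h and GCN2 KO cells given 25 nM halofuginone (HF) for 4 h. Both drug groups carry the same loss of GCN2, and 3 untreated GCN2 KO libraries served as their baseline. The other arms used here were AAVS1 cells, edited at a safe-harbour site that leaves GCN2 in place, and RNF25 KO cells, each with 3 libraries untreated, 3 with the same azaC dose and 3 with the same HF dose. The series as a whole asks how RNF25 acts when azaC damages mRNA and how that relates to the integrated stress response. The labels do not say how many clones stand behind the GCN2 KO line, and they call the replicates biological without naming separate cultures, so the p-values measure the spread between these libraries.

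GCN2, encoded by EIF2AK4, is a kinase that is switched on by uncharged tRNA and by stalled or collided ribosomes. It phosphorylates eIF2, which lowers translation in general and favours translation of ATF4, the transcription factor that raises amino acid transporters, synthetic enzymes and tRNA synthetases in the integrated stress response. HF blocks the prolyl-tRNA synthetase part of EPRS1 and so makes uncharged tRNA, while azaC is a cytidine analogue that is built into RNA and DNA. Comparing both drugs without GCN2 asks which transcripts differ between them when this sensor is missing. Because these are bulk libraries, fewer cells of a kind and less RNA per cell cannot be told apart.

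The 6 libraries held 1397817 to 2022026 counts assigned to genes, against 1135498 to 2478875 over all 45, and a tested gene had a median of 36 to 50 counts in them. Levels are CPM, counts scaled to library size and composition, and differences are log2 fold changes of azaC minus HF with their standard errors. EIF2AK4 (chr15:39934146-40035591, GRCh38), the targeted gene, was still transcribed in GCN2 KO cells, at 28.4, 20.03 and 18.4 CPM with azaC and at 17.0, 14.1 and 16.4 CPM with HF. All AAVS1 libraries lay above these values, with means of 44.0 ± 1.64 untreated, 51.5 ± 6.96 with azaC and 43.7 ± 6.73 with HF (SD, n = 3 each). A whole-gene count does not look at the edited stretch, so this is a lower level and no measure of lost protein. The difference between the drugs in EIF2AK4 did not pass (0.48 ± 0.26, adjusted p = 0.519), nor did that in EPRS, the HF target (-0.12 ± 0.22, adjusted p = 0.919). Mesenchymal and adherent markers summed to 1000 to 1250 CPM in the 9 GCN2 KO libraries, epithelial markers to 45.1 to 69.5 CPM and haematopoietic markers to 14.1 to 35.4 CPM. Of 17 haematopoietic markers, 11 had no count in any of the 9 libraries, although the line came from a leukaemia. The haematopoietic sum came mostly from TAL1 (19 to 51 counts per library) and the epithelial sum mostly from KRT18 (50 to 115). Neural markers summed to 213 to 297 CPM with azaC and to 254 to 327 CPM with HF; one of them, SOX2, was higher with HF (-0.75 ± 0.19, adjusted p = 0.0343) and passed in 1 of 6 fits without 1 library (0.0856 to 0.187 in the other 5).

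Between the drugs, 119 of 11078 tested genes differed at an adjusted p under 0.05 in edgeR's quasi-likelihood test with Benjamini-Hochberg adjustment, which is 1.07% of the genes tested. Higher with azaC were 69 genes (0.623% of those tested), and higher with HF were 50 (0.451%). Well-counted genes with large differences included the chaperones HSPA8 and DNAJA1, the translation factor EIF5 and the respiratory-chain gene NDUFB9, all higher with azaC. Higher with HF were the regulators TXNIP, HES1 and KLF10 and the stress genes DDIT3 and PMAIP1, as well as ARRDC4, which had few counts. The split moved with the scaling, since upper-quartile factors gave 80 genes higher with azaC and 35 higher with HF. The count also rested on the number of libraries: it was 35 without HF replicate 1, 30 without HF replicate 2, 64 without azaC replicate 1 and 57 without azaC replicate 2.

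Transcript base composition differed between the genes called in each direction. A gene higher with azaC had a median GC content of 54.1%, one higher with HF 44.5% and all tested genes 47.3%. The slope of expression on GC content was 0.0185 to 0.118 log2 units per 10% GC in the azaC libraries and -0.189 to 0.0184 in the HF libraries. Untreated GCN2 KO libraries overlapped both, at -0.116 to 0.058, and all 45 libraries ranged from -0.492 to 0.337. With offsets that removed this slope, 110 genes passed, of which 92 were among the 119. The share of counts on mitochondrial genes was 7.35 to 8.34% with azaC, 5.18 to 6.39% with HF and 8.15 to 8.73% untreated. The part of either measure in the calls, beyond that one correction, was not tested.

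**Figure D1:**
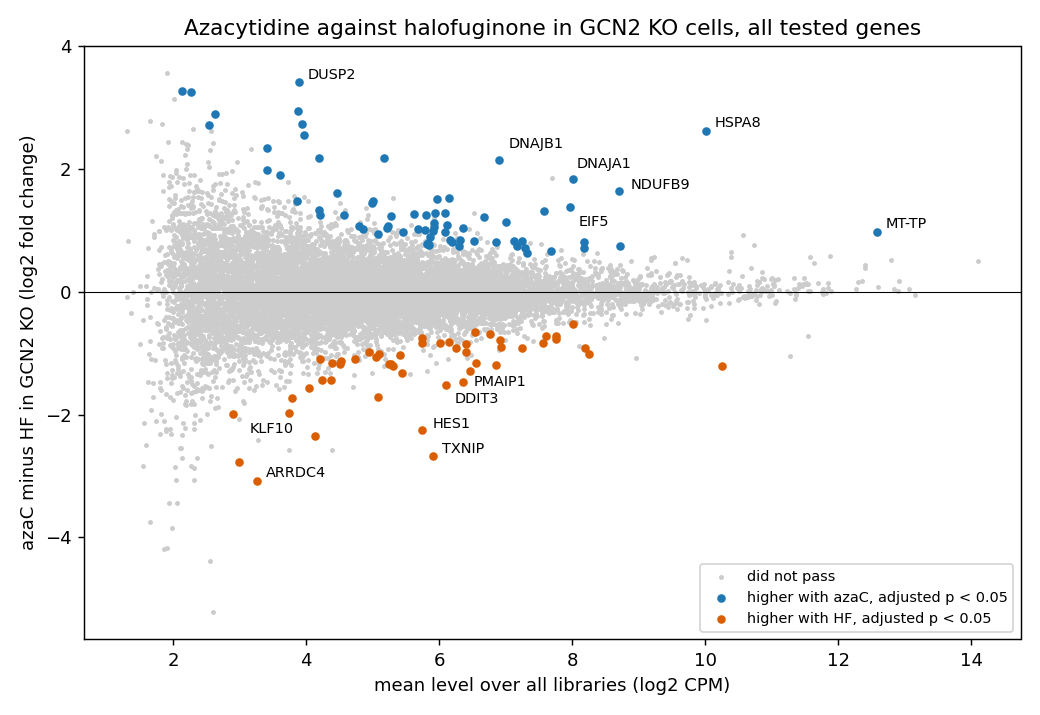
Each point is one of the 11078 tested genes: the horizontal axis is its mean level (log2 CPM) and the vertical axis the log2 fold change of azaC minus HF in GCN2 KO cells. Blue points are the 69 genes higher with azaC and orange points the 50 higher with HF; HSPA8 and EIF5 stand above, TXNIP and HES1 below, and the 4 coloured points beyond a size of 3 (DUSP2, UTF1, CAMKK1 and ARRDC4) rest on few counts.

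Several heat shock chaperones were higher with azaC than with HF. They bind unfolded proteins, and their genes share heat shock elements, which HSF1 binds. Of 22 tested members, 4 were higher with azaC (HSPA8, DNAJA1, DNAJB1 and SERPINH1), against 0.623% of all tested genes, and 0 were lower. A positive value was seen in 17, and the median was 0.32, against -0.01 over all tested genes. This list and those below were chosen with earlier results of these data known. Their shares beside those of all tested genes are therefore a description. HSPA8 encodes the constitutive cytosolic HSP70, DNAJA1 and DNAJB1 its HSP40 partners, and SERPINH1 the collagen chaperone of the endoplasmic reticulum. Each of these 4 genes has a RefSeq window (GRCh38.p14) around a start that holds the inverted repeat GAANNTTC, searched on both strands from 250 bases before to 50 after the start. Among all 35116 such windows 6.77% held it, among the windows of tested genes 4.69%, among the 76 windows of genes higher with azaC 9.21%, and among the 34 windows of the chaperone list 38.2% (13 windows, 12 of 21 genes). The following stretches are shown because they belong to the chaperones with the largest differences among those that passed; each is the 250 bases before a start, 5′ to 3′ on the gene's strand, with the matches in capitals. They lie at chr11:123062137-123062386 (HSPA8, minus strand), chr9:33025023-33025272 (DNAJA1, plus strand) and chr19:14518398-14518647 (DNAJB1, minus strand, the one of its 3 windows with the most matches).
HSPA8: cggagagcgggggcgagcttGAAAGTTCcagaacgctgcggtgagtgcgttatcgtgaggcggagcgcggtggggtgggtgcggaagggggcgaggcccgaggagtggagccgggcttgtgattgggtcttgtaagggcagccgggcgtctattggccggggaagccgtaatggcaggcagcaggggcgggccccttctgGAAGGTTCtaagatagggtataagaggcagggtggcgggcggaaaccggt
DNAJA1: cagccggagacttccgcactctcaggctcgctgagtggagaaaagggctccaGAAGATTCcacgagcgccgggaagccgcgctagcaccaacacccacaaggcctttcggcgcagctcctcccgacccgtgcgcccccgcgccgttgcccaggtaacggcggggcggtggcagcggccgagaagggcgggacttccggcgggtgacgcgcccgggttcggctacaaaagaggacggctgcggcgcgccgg
DNAJB1: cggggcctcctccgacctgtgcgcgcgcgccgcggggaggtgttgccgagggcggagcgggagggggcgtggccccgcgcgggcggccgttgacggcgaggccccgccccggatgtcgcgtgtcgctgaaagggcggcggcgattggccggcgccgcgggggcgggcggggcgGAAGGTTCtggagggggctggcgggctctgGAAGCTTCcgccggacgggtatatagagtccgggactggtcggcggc
Between the end of each match and the start lie 222 and 42 bases in HSPA8, 190 in DNAJA1 (whose window holds a further match) and 69 and 39 in DNAJB1. A match describes letters in this window and is neither a measured binding site nor a cause.

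HSPA8 (chr11:123057489-123063230) stood at 1367, 1266 and 1167 CPM with azaC and at 147, 193 and 273 CPM with HF. Untreated GCN2 KO cells had 1955, 1792 and 1365 CPM, so each HF library lay far under all others. The drugs differed by 2.63 ± 0.25 on the log2 scale, a 6.17-fold higher level with azaC (adjusted p = 1.9e-09). Against the untreated libraries the HF value was -3.05 and the azaC value -0.43, of which the first passed the test. DNAJA1 (chr9:33025211-33039907) had 324, 307 and 345 CPM with azaC and 80.1, 87.8 and 104 CPM with HF, a difference of 1.84 ± 0.22 (adjusted p = 1.96e-07). DNAJB1 (chr19:14514770-14529770) had 196, 186 and 110 CPM with azaC and 39.0, 31.3 and 40.8 CPM with HF, a difference of 2.14 ± 0.40 (adjusted p = 0.00177). In neither gene did the groups overlap. Here and below this describes genes that passed on the same contrast. The share of all tested genes without overlap was not counted.

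The other chaperones differed less or less evenly. SERPINH1 (chr11:75562056-75572783) read 161, 156 and 76.6 CPM with azaC and 55.3, 53.4 and 58.7 CPM with HF, a difference of 1.23 ± 0.28 (adjusted p = 0.0168). Its call was lost without azaC replicate 1 (adjusted p = 0.101), azaC replicate 2 (0.125), HF replicate 1 (0.115) or HF replicate 2 (0.107). The inducible HSP70 gene HSPA1A had 1.85 (adjusted p = 0.0616), and HSP90AA1, the inducible cytosolic HSP90, 0.20. The mitochondrial chaperonins HSPD1 and HSPE1 had 0.06 and 0.14; these 4 genes, which did not pass, were chosen after their values were seen. The list's calls thus sat in HSPA8, its partners DNAJA1 and DNAJB1, and SERPINH1, and 18 of its 22 tested members did not pass.

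**Figure D2:**
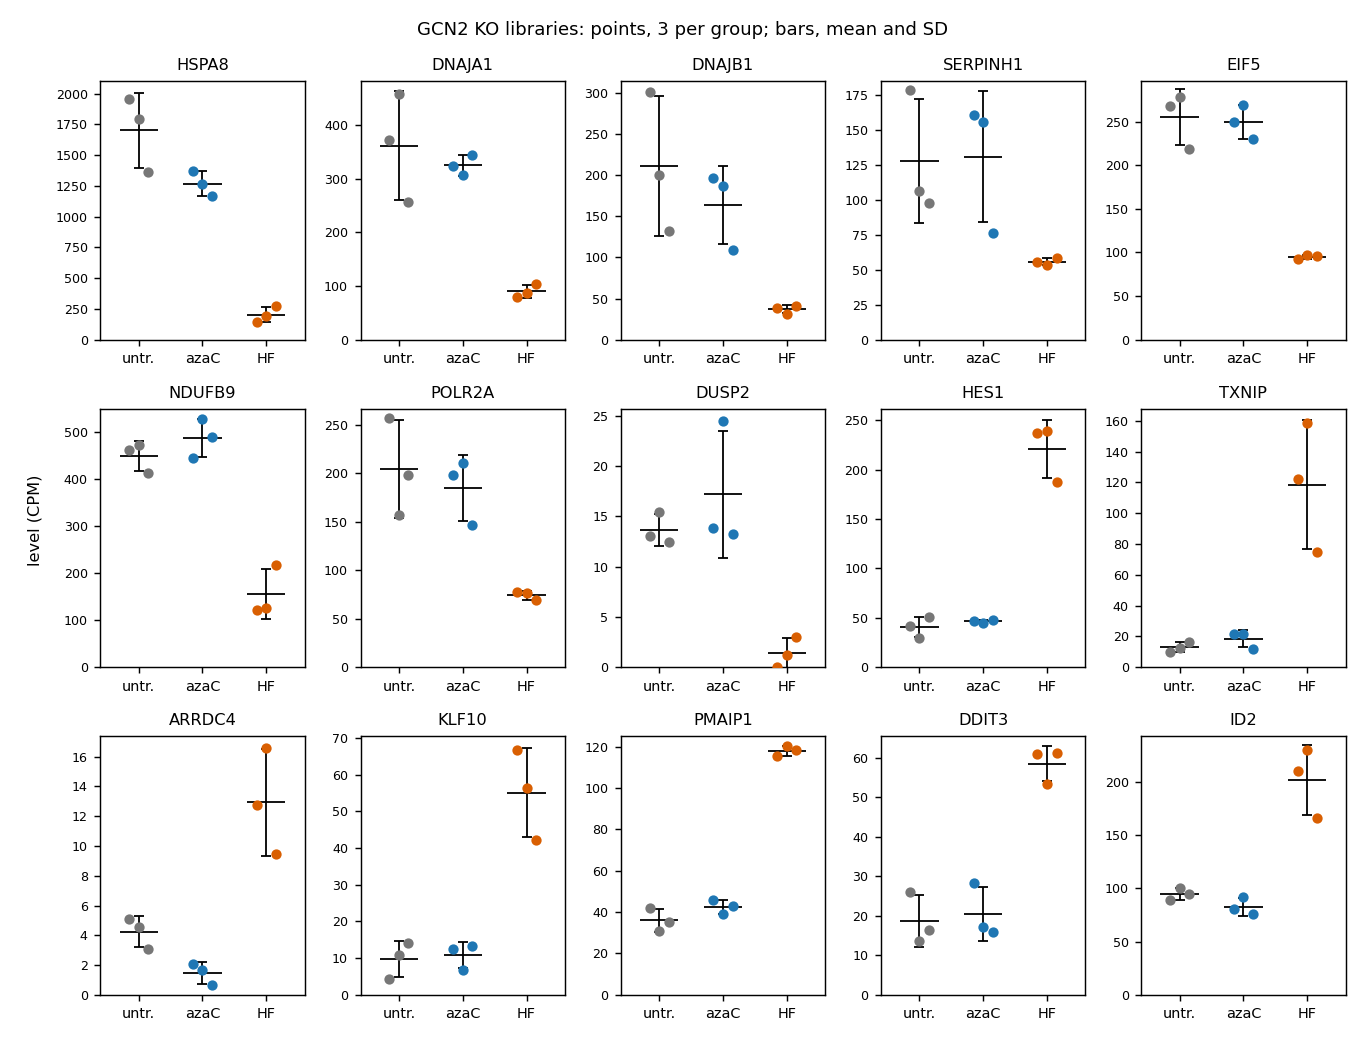
Level (CPM, linear axis from 0) of 15 genes in the 9 GCN2 KO libraries: grey untreated, blue azaC, orange HF; points are libraries and bars the mean and SD of 3. In each panel the 3 HF points lie apart from the 3 azaC points, below them from HSPA8 to DUSP2 and above them from HES1 to ID2. These genes were picked from those past the threshold on this contrast, so the separation is a description.

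EIF5, NDUFB9 and POLR2A formed a second set of well-counted genes higher with azaC. EIF5 (chr14:103333544-103345025) encodes the factor that promotes GTP hydrolysis by eIF2 at the start codon. It had 250, 269 and 230 CPM with azaC, 92.8, 97.0 and 95.5 CPM with HF, and 268, 278 and 219 CPM untreated. The groups did not overlap, and the difference was 1.39 ± 0.14 (adjusted p = 4.57e-09). Other start-site factors did not follow: EIF1 had -0.33 and EIF5B -0.14, neither past the threshold (both chosen after their values were seen). One of the 2 EIF5 windows held GAANNTTC.

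NDUFB9 (chr8:124539101-124580648) encodes an accessory subunit of respiratory complex I. Its levels were 445, 527 and 489 CPM with azaC, 122.6, 127 and 217 CPM with HF, and 461, 472 and 412 CPM untreated. The difference was 1.64 ± 0.17 (adjusted p = 7.33e-09), with no overlap between groups. About 21% of its exon bases overlap exons of the opposite strand, and whether the counting used strand is not given in the sources used here. The neighbouring gene TATDN1 had 0.04, which did not pass (chosen after its values were seen). POLR2A (chr17:7484366-7514616), the largest subunit of RNA polymerase II, had 198, 210 and 146 CPM with azaC and 78.0, 76.2 and 69.1 CPM with HF, a difference of 1.31 ± 0.17 (adjusted p = 1.99e-06). The next subunit, POLR2B, had -0.08 (also chosen after its values were seen).

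The largest positive value among genes that passed was at DUSP2 (chr2:96143166-96145440), a nuclear phosphatase that acts on MAP kinases. It had 20, 44 and 21 counts (13.9, 24.5 and 13.3 CPM) with azaC and 0, 2 and 6 counts (0, 1.23 and 2.98 CPM) with HF, against 13.1, 15.5 and 12.5 CPM untreated. The fitted difference was 3.42 ± 0.53 (adjusted p = 9.48e-05). Others of the 15 largest that held without any one library were SOX8, a transcription factor of the SOXE group (2.95), ZNF296, a zinc finger protein (2.73), LINC00094 (2.56) and SF3A2, a splicing factor of the U2 particle (2.18). SF3A2 had 52.7, 31.7 and 35.4 CPM with azaC and 4.25, 7.98 and 12.9 CPM with HF. LINC00094 shares 21.4% of its exon bases with the opposite strand and SF3A2 12.7%. UTF1 and CAMKK1 passed on few counts: UTF1 had 7, 2 and 12 with azaC and 0, 0 and 2 with HF, and CAMKK1 14, 8 and 9 with azaC and 3, 0 and 0 with HF. For UTF1 the adjusted p was 0.0891 to 0.227 in the 4 fits without 1 library where it no longer passed, and for CAMKK1 0.0562 to 0.209 in 4. The others of the 15 (PCNX3, RPL7P24, FAM117A, TBC1D25, FYCO1 and MIIP) also lost their calls in 3 to 5 of the 6 such fits, with adjusted p from 0.0562 to 0.216 there.

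Among genes higher with HF, 3 of the 10 tested genes on the MondoA and glucose-sensing list passed, TXNIP, ARRDC4 and KLF10. Over all tested genes, 0.451% were higher with HF. MondoA is a transcription factor that responds to sugar phosphates and acts through E-boxes; TXNIP and ARRDC4 encode arrestin-like proteins that reduce glucose uptake. TXNIP (chr1:145992435-145996600) had 21.5, 21.7 and 12.02 CPM with azaC and 122, 158 and 75.1 CPM with HF, against 10.2, 12.7 and 16.3 CPM untreated. All 3 HF libraries lay above every other library, and the difference was -2.68 ± 0.33 (adjusted p = 4.5e-07). ARRDC4 (chr15:97960698-97973838) had 3, 3 and 1 counts (2.08, 1.67 and 0.633 CPM) with azaC and 18, 27 and 19 counts (12.8, 16.6 and 9.45 CPM) with HF. Its untreated libraries lay between, at 5.09, 4.55 and 3.11 CPM. The difference was -3.08 ± 0.55 (adjusted p = 0.000828); it was made of 1.58 for HF and -1.50 for azaC against untreated cells, neither of which passed (adjusted p = 0.113 and 1).

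The exact E-box CACGTG occurred in the 1 window of ARRDC4 and in neither of the 2 windows of TXNIP. It was in 7.26% of all windows, 9.46% of those of tested genes and 8.22% of the 73 windows of genes higher with HF. Only this exact sequence was searched. E-box-like sites with other letters were not counted, so the result for TXNIP does not show that such sites are absent. The ARRDC4 stretch (chr15:97960453-97960702, plus strand) is shown because this gene had the largest negative difference that passed, with the match in capitals; 204 bases lie between its end and the start.
ARRDC4: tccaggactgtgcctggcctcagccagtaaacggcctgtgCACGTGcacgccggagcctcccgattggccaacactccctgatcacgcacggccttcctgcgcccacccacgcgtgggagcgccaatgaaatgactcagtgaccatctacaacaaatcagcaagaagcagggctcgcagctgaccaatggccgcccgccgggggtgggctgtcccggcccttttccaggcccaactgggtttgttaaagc
The rest of the list, including ARRDC3 (-0.98, adjusted p = 0.0972; chosen after its values were seen), did not pass, and its median over 10 tested members was -0.35.

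KLF10 also belongs to the immediate early genes, which are transcribed within minutes of a stimulus without new protein. Of 29 tested immediate early genes, 5 were higher with HF (KLF10, ID2, ID3, ZFP36L1 and IER2) and 1, DUSP2, was higher with azaC. Over all tested genes the shares were 0.451% and 0.623%. The list's median was -0.52, against -0.01 over all tested genes. KLF10 (chr8:102648779-102655902), a zinc finger repressor induced by TGF-beta, had 12.5, 6.68 and 13.3 CPM with azaC and 66.6, 56.5 and 42.3 CPM with HF, a difference of -2.35 ± 0.35 (adjusted p = 4.27e-05). ID2, which blocks basic helix-loop-helix factors, had 80.4, 92.3 and 75.9 CPM with azaC and 210, 230 and 166 CPM with HF, a difference of -1.28 ± 0.22 (adjusted p = 0.000514). The related ID3 had -1.0 ± 0.24 (adjusted p = 0.0257) and passed in 1 of 6 fits that left out a library, with 0.0773 to 0.13 in the other 5. ZFP36L1, which binds AU-rich mRNAs, had -1.21 ± 0.25 (adjusted p = 0.00672) and was lost without azaC replicate 3 (0.053) or HF replicate 1 (0.13). IER2, a nuclear immediate early protein, had -0.91 (adjusted p = 0.0162; chosen after its values were seen, to complete the 5). ID2 and ID3 were also the 2 of 18 tested members that passed on the list of TGF-beta and YAP targets and collagen genes, whose median was -0.55 with 2 positive values.

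HES1 (chr3:194136145-194138732), a repressor best known as a target of Notch signalling, separated the groups without overlap. It had 47.1, 45.1 and 47.5 CPM with azaC, 237, 240 and 187 CPM with HF, and 42.1, 30.03 and 50.6 CPM untreated. The difference was -2.25 ± 0.24 (adjusted p = 7.33e-09), and over 18 alternatives it lay between -2.35 and -2.19. The related HEY1 had 7.62, 6.68 and 5.06 CPM with azaC and 32.6, 22.1 and 23.4 CPM with HF (-2.0 ± 0.48, adjusted p = 0.0249), but it passed in only 1 of the 6 fits without 1 library (0.0637 to 0.145 in the other 5). Notch ligands and receptors, chosen after their values were seen, gave values of both signs. JAG2 was higher with azaC (1.28 ± 0.25, adjusted p = 0.00274), a call lost without HF replicate 2 (1.08, adjusted p = 0.0661), while JAG1 (-1.05), NOTCH1 (0.29) and NOTCH2 (-0.32) did not pass.

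TSC22D1, a leucine zipper factor also induced by TGF-beta, had 30.5, 27.8 and 27.2 CPM with azaC and 80.1, 79.2 and 55.7 CPM with HF, a difference of -1.32 ± 0.25 (adjusted p = 0.00173) that held without any one library. The others of the 15 largest differences on the HF side were less firm. RNF152, ANXA2R, PAX6, NEUROG2, CCNG2, KITLG and EFNB2 passed with values from -1.43 (EFNB2) to -2.77 (RNF152), and each lost its call in 4 to 6 of the 6 fits without 1 library, with adjusted p from 0.0521 to 0.277 there. PAX6 and NEUROG2 are transcription factors of the nervous system, KITLG and EFNB2 ligands of receptor kinases, and CCNG2 an atypical cyclin. NEUROG2 had 24.3, 23.4 and 22.2 CPM with azaC and 111, 66.3 and 53.2 CPM with HF, but its untreated libraries spread from 13.7 to 57.4 CPM.

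Of the integrated stress response, a small group differed between the drugs. Of 44 tested target genes of 50 listed, 0 were higher with azaC and 5 were higher with HF (DDIT3, PMAIP1, SESN2, CEBPG and TXNIP). Over all tested genes, 0.451% were higher with HF. In the list, 18 values were positive and the median was -0.07, against -0.01 over all tested genes. DDIT3 (chr12:57516588-57521737), which encodes the pro-apoptotic factor CHOP, had 28.4, 17.3 and 15.8 CPM with azaC, 61.0, 53.4 and 61.2 CPM with HF, and 26.2, 13.7 and 16.3 CPM untreated. Its groups did not overlap, and the difference was -1.52 ± 0.30 (adjusted p = 0.00293); 31.6% of its exon bases lie opposite to another gene's exons. PMAIP1 (chr18:59899948-59904306), the BH3-only protein NOXA, had 45.7, 38.9 and 43.0 CPM with azaC and 116, 120 and 118 CPM with HF, a difference of -1.47 ± 0.25 (adjusted p = 0.000514). It was also the 1 gene of 19 tested on the BCL2 family and death receptor list that passed. PMAIP1 and SESN2 were also the 2 of 21 tested p53 targets that passed. The p53 target list had 5 positive values and a median of -0.44, further from the median over all tested genes than the stress response list. DDIT3 has 2 promoter windows, which overlap almost fully, and the element TGATGNAAN, bound by ATF4 and CHOP, was in neither. Each reaches from 250 bases before to 50 after a start, so sites further out were not searched. The element was in 3.61% of all windows, 1.98% of those of tested genes and 4.11% (3 of 73) of those of genes higher with HF.

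The remaining calls on the integrated stress response list were less firm. SESN2, a sestrin that restrains mTORC1, had 63.8, 95.1 and 56.3 CPM with azaC and 122.6, 91.5 and 142 CPM with HF, so the groups overlapped (-0.72 ± 0.18, adjusted p = 0.0264). It no longer passed without azaC replicate 1 (0.133), azaC replicate 3 (0.189), HF replicate 1 (0.13) or HF replicate 3 (0.166). CEBPG, a dimer partner of ATF4, had 16.6, 16.1 and 22.8 CPM with azaC and 38.3, 35.0 and 35.8 CPM with HF (-0.97 ± 0.26, adjusted p = 0.045); it passed in 1 of the 6 fits without 1 library, with 0.0847 to 0.224 in the other 5, and did not pass with GC-corrected offsets (0.0729).

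ATF4 itself stood at 685, 437 and 650 CPM with azaC and at 615, 558 and 577 CPM with HF, a difference of 0.02 ± 0.19 (adjusted p = 0.987); its protein was not measured here. The ATF4 targets ATF3 (-0.08), TRIB3 (0.19), PPP1R15A (0.04) and STC2 (-0.06) did not pass either. HERPUD1, of endoplasmic-reticulum-associated degradation, had 0.59 (adjusted p = 0.209), and the secreted factor GDF15, chosen after its values were seen, -2.58 (adjusted p = 0.123). The values of CHAC1, a glutathione-degrading enzyme, and DDIT4, an mTORC1 inhibitor, rested on azaC replicate 2. CHAC1 had 2.77, 22.3 and 0 CPM with azaC and a difference of 1.53, which was -1.13 without that library (adjusted p = 0.818). DDIT4 had 14.6, 31.7 and 6.33 CPM with azaC and a difference of 1.28, which was 0.49 without it (adjusted p = 0.884); 41.2% of its exon bases lie opposite to other exons.

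**Figure D3:**
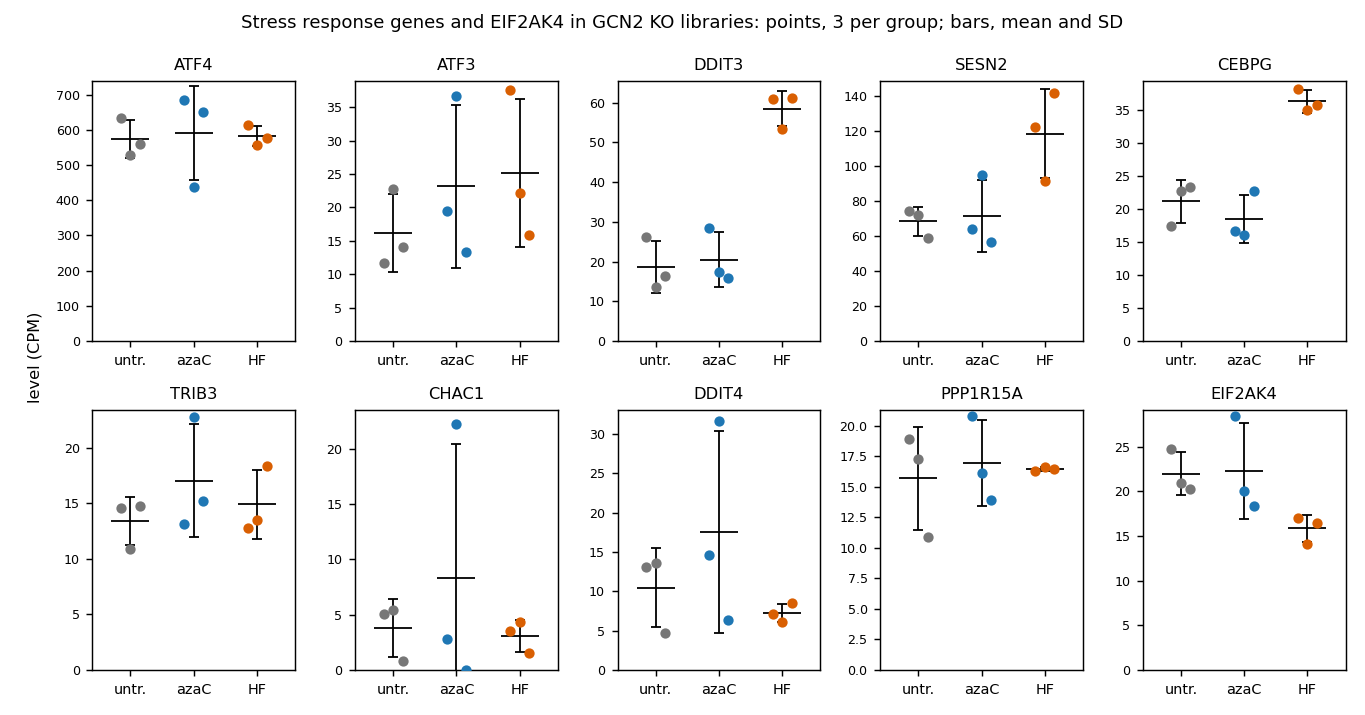
Level (CPM, linear axis from 0) of 9 stress response genes and of EIF2AK4 in the 9 GCN2 KO libraries, with the mean and SD of 3 as bars. HF points stand above azaC points for DDIT3 and CEBPG, overlap them for SESN2 and lie among them for ATF4, ATF3 and TRIB3; one azaC library carries CHAC1 and DDIT4.

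Gene groups that the integrated stress response usually raises gave no call between the drugs in GCN2 KO cells. None of 23 cytosolic tRNA synthetases passed in edgeR (median -0.07, with 3 at an unadjusted p under 0.05), none of 18 amino acid and one-carbon synthesis genes (median -0.02, with 0) and none of 17 amino acid transporters (median 0.13, with 2). DESeq2 and limma-voom also called 0 in each of these 3 groups. The same held for 22 chaperones and unfolded protein response genes of the endoplasmic reticulum (median 0.15, with 6 at an unadjusted p under 0.05, and 0 by either other tool). In 33 genes of ribosome collision and quality control and 77 cytosolic ribosomal protein genes, edgeR, DESeq2 and limma-voom called 0, with 2 and 0 at an unadjusted p under 0.05 and medians of 0.07 and 0.02.

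Groups tied to what azaC is known for showed no call either. None of 22 pyrimidine and nucleoside genes passed (median -0.11, with 3 at an unadjusted p under 0.05) and none of 14 cytosine methyltransferases and partners (median -0.15, with 1); DESeq2 and limma-voom called 0 in both. Of 19 germline genes silenced by DNA methylation, 15 had no count in the 9 libraries and 1 could be tested. Ribosome biogenesis had 2 of 42 tested members higher with azaC, RRP1B (0.63 ± 0.14, adjusted p = 0.0112) and NOP16 (0.72 ± 0.17, adjusted p = 0.0203), a median of 0.17 and 31 positive values. Over all tested genes, 0.623% were higher with azaC and the median was -0.01. RRP1B was lost without azaC replicate 3 (0.0765) or HF replicate 2 (0.0945), and NOP16 in 4 of 6 such fits (0.0787 to 0.162). In cholesterol synthesis, 1 of 22 passed, the sterol methyl oxidase MSMO1 (1.29 ± 0.31, adjusted p = 0.0216), which was lost without azaC replicate 3 (0.156), HF replicate 1 (0.136) or HF replicate 2 (0.16).

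Some groups had values mostly of one sign without calls. The median over all tested genes was -0.01. All 13 mitochondrial mRNAs had positive values with a median of 0.56, and 0 passed in edgeR, DESeq2 and limma-voom (5 at an unadjusted p under 0.05); they stand beside the lower mitochondrial share of the HF libraries given above. The mitochondrial proline tRNA entry MT-TP passed, with 9288, 11890 and 10900 CPM with azaC, 5052, 4787 and 6439 CPM with HF and 14000, 12980 and 15000 CPM untreated (0.98 ± 0.19, adjusted p = 0.00342). It was lost without HF replicate 1 (0.0612) or HF replicate 2 (0.0663). The libraries were made from polyA RNA and strand use is not given, so this entry is no measure of mature proline tRNA. Of 29 S phase genes, 4 had positive values and the median was -0.37; edgeR and limma-voom called 0, DESeq2 1, and 7 were under an unadjusted p of 0.05. Of 21 snoRNA host transcripts, 17 had positive values with a median of 0.34; edgeR and limma-voom called 0, DESeq2 1, and 8 were under an unadjusted p of 0.05.

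Set beside the untreated GCN2 KO libraries, which both contrasts share, the drugs gave unequal counts. These untreated libraries were shallow, at 1135498 to 1462298 counts. A tested gene had a median of 27 to 34 counts in them, against 36 to 50 in the 6 drug libraries. A gene that did not pass is not shown to be unchanged. After azaC, 0 of 11078 genes passed (0%) in edgeR, and 0 in DESeq2 and in limma-voom; 405 had an unadjusted p under 0.05 in edgeR. After HF, 137 genes passed (1.24%), 81 higher and 56 lower, and 250 passed with the replicate number as a block. The 69 genes higher with azaC than with HF had a median of 0.14 against untreated cells after azaC and of -1.03 after HF. The 50 genes higher with HF had a median of -0.15 after azaC and of 0.90 after HF. Since these genes were chosen on the contrast between the drugs, their values are a description. In the heat shock list, 5 of 22 genes fell after HF (median -0.47) and 0 passed after azaC (median -0.21). In the immediate early list, 8 of 29 rose and 1 fell after HF (median 0.67), and 0 passed after azaC (median 0.23).

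**Figure D4:**
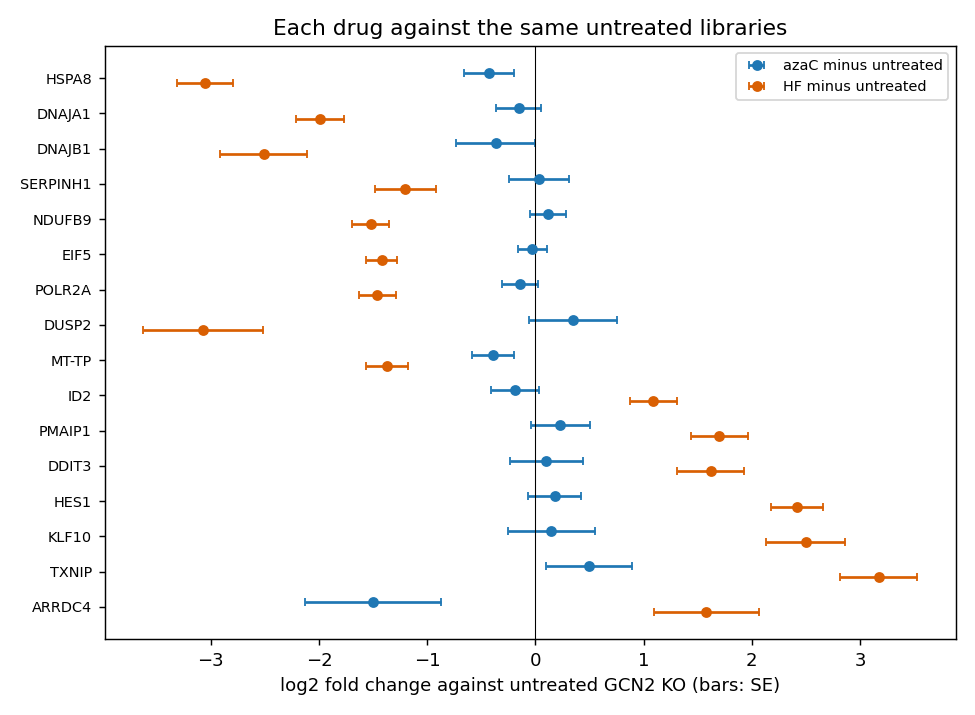
Log2 fold change of each drug against the same 3 untreated GCN2 KO libraries for 16 genes, with the standard error as bars. HF values (orange) run from -3.07 at DUSP2 to 3.17 at TXNIP, while azaC values (blue) stay nearer 0, apart from ARRDC4 at -1.50.

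The same drug contrast gave 110 genes in AAVS1 cells (0.993% of those tested), 34 higher with azaC and 76 higher with HF, and 81 in RNF25 KO cells (0.731%), 48 and 33. Whether the contrast itself differed was tested as the value in GCN2 KO minus that in the other genotype; both tests share the GCN2 KO libraries. Against AAVS1, 15 genes differed (0.135% of those tested), 14 of them with a higher value in GCN2 KO, and against RNF25 KO 4 genes did (0.0361%), EIF5, NDUFB9, HES1 and TXNIP. The count of 15 was 6 without AAVS1 azaC replicate 1 and 8 without GCN2 KO azaC replicate 2, GCN2 KO HF replicate 1 or AAVS1 HF replicate 1.

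EIF5 and NDUFB9 differed from both genotypes, and the HF level was where the genotypes parted. In AAVS1 cells EIF5 had 261 ± 13.0 CPM with azaC and 303 ± 15.6 with HF, and in RNF25 KO cells 295 ± 16.0 and 301 ± 30.3 (SD, n = 3). The drug contrast of EIF5 was -0.21 and -0.03 there, and it differed from that in GCN2 KO by 1.60 ± 0.19 (adjusted p = 1.81e-06) and 1.42 ± 0.19 (adjusted p = 3.94e-05). NDUFB9 had 392 ± 5.86 CPM with HF in AAVS1 cells and 391 ± 17.4 in RNF25 KO cells. Its contrast was 0.09 and -0.03 there, differing by 1.55 ± 0.24 (adjusted p = 0.000261) and 1.67 ± 0.24 (adjusted p = 4.44e-05). Both genes passed under all 22 alternatives run for each difference.

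HES1 and TXNIP differed from RNF25 KO in the other direction. HES1 reached 56.7 ± 2.80 CPM with HF in AAVS1 cells and 46.3 ± 3.66 in RNF25 KO cells. Its contrast was -0.95 and -0.24 there, and the difference from RNF25 KO was -2.0 ± 0.34 (adjusted p = 0.00142, passing under 22 of 22 alternatives), while that from AAVS1 did not pass (-1.30, adjusted p = 0.147). TXNIP had 90.3 ± 38.9 CPM with azaC and 109 ± 32.8 with HF in RNF25 KO cells, so both drugs stood near the level seen with HF in GCN2 KO cells. The difference from RNF25 KO was -2.38 ± 0.44 (adjusted p = 0.00551), and that from AAVS1 did not pass (-1.76, adjusted p = 0.115). The first was lost in the fit to the 12 libraries compared (0.0555) and without GCN2 KO azaC replicate 3 (0.0856), GCN2 KO HF replicate 2 (0.0511), RNF25 KO azaC replicate 1 (0.0606) or RNF25 KO HF replicate 3 (0.0508).

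For HSPA8, DNAJA1 and DNAJB1 the difference from either genotype did not pass. HSPA8 had a contrast of 2.64 in AAVS1 cells and 2.43 in RNF25 KO cells, which differed from that in GCN2 KO by -0.01 ± 0.34 and 0.20 ± 0.34. DNAJA1 had 1.45 and 1.52, and DNAJB1 2.30 and 1.51, of which the last did not pass (adjusted p = 0.0624). DDIT3 had -1.56 in AAVS1 cells and 0.17 in RNF25 KO cells, differing from GCN2 KO by 0.04 (adjusted p = 1) and -1.69 (adjusted p = 0.123).

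Of the 15 genes that differed from AAVS1 (0.135% of those tested), 8 were among the 44 tested stress response targets. Of the 44 tested targets, 27 were higher with HF than with azaC in AAVS1 cells (median -1.05), against 5 in GCN2 KO cells (median -0.07). The median of the difference was 0.89. In RNF25 KO cells only 3 of the 44 were higher with HF (median -0.28), so a low count was not particular to GCN2 KO. Against RNF25 KO the difference passed for 1 of the 44, TXNIP, and its median was 0.19. TRIB3, a pseudokinase induced by ATF4, had 149 ± 27.6 CPM with HF in AAVS1 cells and 14.9 ± 3.07 in GCN2 KO cells, and its contrast differed by 2.64 ± 0.47 (adjusted p = 0.00231). SLC38A2, a neutral amino acid transporter, had a contrast of -1.07 in AAVS1 cells and 0.55 in GCN2 KO cells, a difference of 1.62 ± 0.25 (adjusted p = 0.000269). GPT2, a mitochondrial alanine transaminase, differed by 1.82 (adjusted p = 0.00559), and SNHG1, a snoRNA host transcript, by 1.43 (adjusted p = 0.000361). These 4 genes passed under all 22 alternatives.

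Further genes passed less evenly. SLC7A11, the cystine transporter, differed by 1.62 (adjusted p = 0.0144) and was lost without GCN2 KO azaC replicate 2 (0.161), AAVS1 azaC replicate 1 (0.0781) or AAVS1 HF replicate 1 (0.0569). PSAT1, of serine synthesis, differed by 1.40 (adjusted p = 0.00852) and was lost without GCN2 KO azaC replicate 2 (0.0685), GCN2 KO HF replicate 1 (0.0517) or AAVS1 azaC replicate 1 (0.0511). HERPUD1 differed by 1.37 (adjusted p = 0.0192); it was lost with no filter on low counts (0.0643) and without GCN2 KO azaC replicate 1 (0.0589), GCN2 KO HF replicate 2 (0.186), AAVS1 azaC replicate 1 (0.0511), AAVS1 azaC replicate 2 (0.0555) or AAVS1 HF replicate 1 (0.104). ANKRD11, a chromatin regulator, differed by 1.09 (adjusted p = 0.00961); it was lost with GC-corrected offsets (0.134), with no filter (0.0643) and without GCN2 KO HF replicate 1 (0.0517) or AAVS1 azaC replicate 1 (0.0511).

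**Figure D5:**
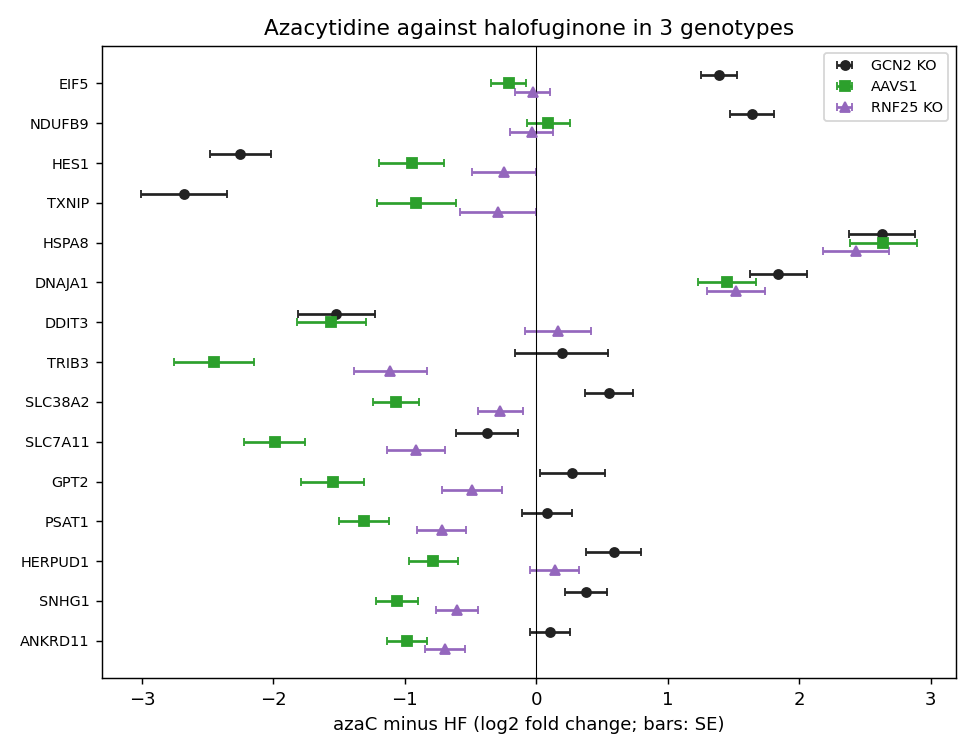
Log2 fold change of azaC minus HF (standard error as bars) for 15 genes in GCN2 KO (black), AAVS1 (green) and RNF25 KO cells (purple). EIF5 and NDUFB9 lie far from 0 in GCN2 KO and near 0 elsewhere, HSPA8 lies at 2.63, 2.64 and 2.43, and TRIB3, SLC7A11 and GPT2 are negative in AAVS1 and nearer 0 in GCN2 KO.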

How the data were processed

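RNA was polyA RNA, made into CORALL libraries per the labels' protocols, and the deposited file holds raw counts per gene for 45 libraries. The submitters' processing notes name STAR 2.7.10b, HTSeq 0.9.1 and GRCh38. Which annotation the authors counted, whether strand was used and whether reads were collapsed by molecular identifier is not given in the sources used here. Entries with an identifier but no symbol (2862, 0.0286% of counts) stayed in.

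From 60676 genes, 11078 passed filterByExpr (minimum count 10) in a fit of 15 group means to 45 libraries (30 residual degrees of freedom) by edgeR 4.0.16 with TMM factors, quasi-likelihood tests, two-sided, and Benjamini-Hochberg adjustment over all tested genes (threshold 0.05). The biological coefficient of variation was 22.1%. A prior count of 2 entered the log2 levels behind the GC slopes and the replicate correlations. Fold changes were fitted with edgeR's default prior count. DESeq2 1.42.0, limma-voom 3.58.1, other scalings, filters, subsets and a replicate block were alternatives (R 4.3.3). Gene positions come from GENCODE 29 and promoter windows from RefSeq.

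Members and lists were chosen with earlier results of these data known. Lists are described by counts and medians, with no set test. Named genes were, by rule, the 15 largest passing differences in each direction, up to 4 passing members per list (or the 2 smallest p where none passed), EIF2AK4, EPRS1, 11 stress genes, and up to 10 genes by smallest p for the other contrasts; exceptions are marked in the text. Replicates of one group differed beyond sampling noise (chi-square per degree of freedom 3.18 to 8.98).

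Replicate numbers are shared between groups. All 3 same-number correlations of untreated and HF libraries were over 0.1, the limit used (0.11, 0.44 and 0.35). That contrast is therefore also given with the block. The best correlations with another number were 0.17, 0.053 and -0.17, so for replicate 1 another number matched better.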

Additional observations from a re-analysis of the deposited data

Results flagged for a closer look

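The contrast of azaC minus HF differed between GCN2 KO and AAVS1 cells, by edgeR's test of the difference itself, for 10 named genes. The difference (GCN2 KO minus AAVS1, log2) was 2.64 for TRIB3, 1.82 for GPT2, 1.62 for SLC38A2, 1.62 for SLC7A11, 1.40 for PSAT1, 1.37 for HERPUD1, 1.43 for SNHG1, 1.09 for ANKRD11, 1.60 for EIF5 and 1.55 for NDUFB9. Between GCN2 KO and RNF25 KO cells the same test passed for EIF5 (1.42), NDUFB9 (1.67), HES1 (-2.0) and TXNIP (-2.38). Both sets use the same 6 GCN2 KO libraries. EIF5 and NDUFB9 passed against both genotypes.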

How the results depend on the processing

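The count of 119 genes between the drugs became 281 with a replicate block, 182 with a replicate block on the 6 libraries compared and 179 in DESeq2, and ranged from 30 to 96 without one library each. The numbers were taken to pair libraries where all 3 same-number correlations were over 0.1. That was not so for azaC and HF (0.12, -0.066 and 0.14) or for untreated and azaC (0.11, 0.095 and 0.23), and the labels give no shared culture or day. For untreated and azaC, each same-number value still lay above the best with another number (-0.041, 0.041 and -0.071). The limit therefore does not settle which groups are paired. Replicate 2 had the lowest GC slope of its group in untreated (-0.116) and HF (-0.189) GCN2 KO libraries, but the highest with azaC (0.118). RNF25 KO cells had the same order (-0.064 untreated, -0.165 with HF and 0.337 with azaC). In AAVS1 cells replicate 2 was lowest untreated (-0.492), with azaC (-0.0484) and with HF (-0.157). Whether the replicate number marks a shared batch was not tested. HF against untreated gave 137 genes, 250 with the block and 45 to 108 without one library. The difference from AAVS1 gave 15 genes, 33 with the block, 31 in DESeq2 and 6 to 18 without one library; that from RNF25 KO gave 4, 20 with the block, 13 in DESeq2, 13 with no filter and 3 to 6 without one library. Fewer genes after leaving out a library go with fewer samples; the cause of the other moves was not tested. For azaC against untreated the count was 0 under all 16 alternatives. Of the named genes' values between the drugs, 1882 of 2129 kept their side of the threshold, 203 lost and 44 gained it, and none past the threshold changed sign; values that did not pass could, such as CHAC1 (-1.13 without azaC replicate 2); of 45 named genes that passed, 19 passed under all alternatives. Of 543 list medians, 41 moved by more than the spread. At 1397817 to 2022026 counts per library, genes with a few counts, such as UTF1, could not be placed firmly.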

Other observations

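Some further genes, chosen after their values were seen, differed between azaC and HF in GCN2 KO cells. Of 4 tested metallothionein genes, which encode small proteins that bind zinc and copper, MT1F was higher with HF under every alternative run. It had 143, 114 and 151 CPM with azaC and 269, 300 and 355 CPM with HF, a difference of -1.18 ± 0.23 (adjusted p = 0.00309), and its groups did not overlap. MT1E had -1.21 (adjusted p = 0.0149), a call lost without azaC replicate 1 (0.108) or HF replicate 3 (0.171), while MT1X (-1.08, adjusted p = 0.137) and MT2A (-1.04, adjusted p = 0.0574) did not pass.

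NR2F2 and NR2F1 encode orphan nuclear receptors of the COUP-TF group. NR2F2 had 126, 67.9 and 95.5 CPM with azaC and 225, 200 and 220 CPM with HF (-1.16 ± 0.20, adjusted p = 0.00074). NR2F1 had -1.18 (adjusted p = 0.00868) and was lost without azaC replicate 3 (0.0712) or HF replicate 1 (0.116). BAG1, a nucleotide exchange factor for HSP70, was higher with azaC, at 65.8, 66.2 and 67.7 CPM against 42.5, 20.3 and 22.4 CPM with HF (1.25 ± 0.24, adjusted p = 0.00242), a call lost without HF replicate 2 (0.0643).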
